A study of Mus musculus with 6 samples.

Results

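The 8 genes described here encode the major histocompatibility complex (MHC) class II machinery of the mouse. They are the invariant chain Cd74, the classical chains H2-Aa, H2-Ab1 and H2-Eb1, the peptide exchange factor subunits H2-DMa, H2-DMb1 and H2-DMb2, and the transactivator Ciita. All 8 were found by symbol among the 24091 genes of the deposited read count table. They were chosen with their higher level in leukaemic mice already known, so their difference between groups is given as a description. The tests run over all genes included them, and nothing is read from their calls. Messenger RNA had been sequenced from group 1 innate lymphoid cells (ILC1) of the liver of C57BL/6 mice at day 14. The AML mice (3 libraries, AML 1 to 3) had been given 1000000 C1498 cells intravenously; C1498 is a myeloid leukaemia cell line that arose in C57BL/6 mice. The healthy mice (3 libraries, healthy 1 to 3) had received none. The labels do not say whether a library came from 1 animal or from pooled animals, how the ILC1 were sorted, or whether equal library numbers share anything, so the spread between libraries may be technical in part.

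MHC class II molecules are pairs of an alpha and a beta chain that present peptides from the endosome to CD4 T cells. The invariant chain fills the groove of the new molecule and guides it to the endosome, where proteases cut it down and H2-DM removes the last fragment so that antigenic peptide can bind. Constitutive expression is a property of dendritic cells, B cells and macrophages, while many other cells switch the genes on through CIITA after exposure to interferon gamma. ILC1 and natural killer (NK) cells are better known for cytokine release and killing than for antigen presentation.

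Of the members, 6 lie together in the MHC on chromosome 17, within 197.1 kb by the GENCODE annotation of GRCm38. Cd74 and Ciita lie on other chromosomes. Class II promoters are known for an X box, bound by the RFX complex and CREB1, followed by a Y box, bound by NF-Y, and CIITA acts on the proteins assembled there. Promoters of 5 members were read in RefSeq sequence of GRCm38.p6, and 4 of them are shown because their letters can be read against this arrangement. That of Cd74 is not reported here, and H2-Ab1 and Ciita had none in the sequences used. Each run gives the 150 bases before the transcription start, 5′ to 3′ on the strand of the gene. Capitals mark matches on either strand to AACNGAT, for part of the X box, and to TGATTGG, for the Y box. Both motifs were spelled after the sequences had been read, and the matches do not overlap.
H2-Eb1 (chr17:34305717-34305866, plus strand): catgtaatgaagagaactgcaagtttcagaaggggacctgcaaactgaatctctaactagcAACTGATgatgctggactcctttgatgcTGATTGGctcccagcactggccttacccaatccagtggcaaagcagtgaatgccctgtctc
H2-Aa (chr17:34287824-34287973, minus strand): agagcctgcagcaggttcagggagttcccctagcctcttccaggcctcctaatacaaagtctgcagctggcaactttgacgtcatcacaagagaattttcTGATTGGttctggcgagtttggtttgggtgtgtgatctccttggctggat
H2-DMb1 (chr17:34153041-34153190, plus strand): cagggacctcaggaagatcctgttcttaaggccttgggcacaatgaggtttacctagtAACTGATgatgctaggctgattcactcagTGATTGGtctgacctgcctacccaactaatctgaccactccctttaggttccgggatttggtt
H2-DMb2 (chr17:34145099-34145248, plus strand): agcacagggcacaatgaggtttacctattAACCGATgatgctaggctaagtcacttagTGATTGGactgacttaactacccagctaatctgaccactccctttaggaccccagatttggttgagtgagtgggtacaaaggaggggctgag

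H2-Eb1, H2-DMb1 and H2-DMb2 held both motifs in this order, with 21, 22 and 22 bases between them. H2-Aa matched the Y box letters only, and neither H2-DMa window matched either motif. A missing match to these exact letters does not show that an X or Y box is absent. Among 32851 promoter windows of 300 bases, 6.94% held the X box letters, 7.82% the Y box letters and 0.545% held both. The last share counts both motifs in any order, at any spacing and on either strand, so it is not the share with this arrangement. Outside the 8 members, H2-Eb2 also held both in this order, and H2-Oa and H2-Ob held the Y box letters.

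Class II transcripts were found in every library, and their summed level was higher in AML. Total counts ran from 45135093 to 51284691 in the AML and healthy libraries together, and 3 reads, taken as the limit that a count of 0 allows, came to 0.0574 to 0.0642 CPM. CPM is the number of reads on a gene per 1000000 reads of the library, here with library sizes scaled by the TMM method. All gene positions are those of the count table on mm10. The 7 measured ILC1 markers included Ncr1, Klrb1c and Cxcr6. They summed to 5105 to 5763 CPM in AML libraries and to 5426 to 5603 CPM in healthy libraries. Ncr1 lay higher in each AML library than in any healthy library, at 1558 to 1813 against 1458 to 1552 CPM. Cxcr6 lay lower in each, at 666.7 to 797 against 854.5 to 1033 CPM, and the other markers overlapped. Of all genes tested 8.2% lay above and 7.34% below in this way. The 8 class II members summed to 596, 387 and 681 CPM in AML 1, 2 and 3, against 214, 110.2 and 149 CPM in healthy 1, 2 and 3. The means were 555 ± 151 CPM in AML libraries and 158 ± 52.5 CPM in healthy libraries (SD, n = 3 each), a 3.52-fold ratio. The lowest AML library lay 1.81-fold above the highest healthy library. In RNA from a mixed cell sample, more cells of a type and more RNA per cell cannot be told apart.

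**Figure D1:**
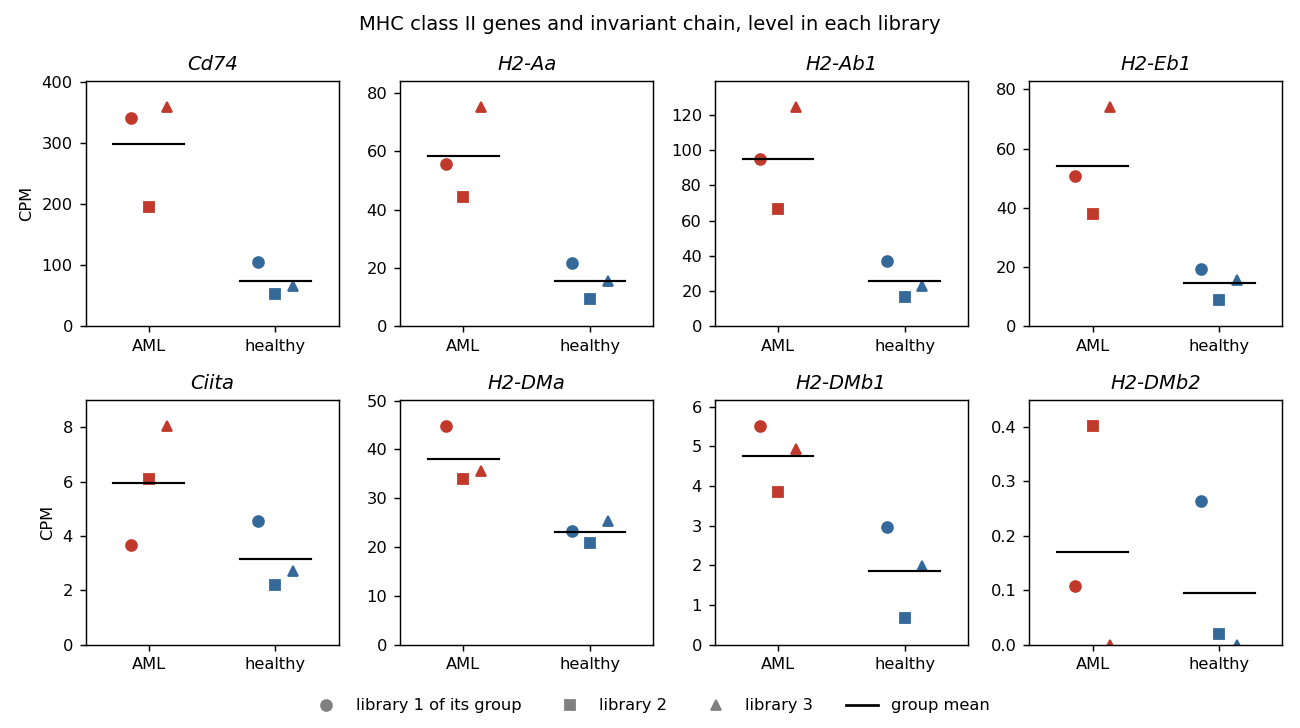
Level of each of the 8 members (y axis, CPM on TMM-scaled library sizes) in the 3 AML and 3 healthy libraries. Symbols mark the library number within its group and bars the group means. The AML points lie above all healthy points for Cd74, H2-Aa, H2-Ab1, H2-Eb1, H2-DMa and H2-DMb1, and the groups overlap for Ciita and H2-DMb2.

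Cd74 (chromosome 18, 60803849 to 60812652) had the highest RPKM of the members, a unit that divides CPM by the gene length in kilobases. Besides acting as the invariant chain, its protein reaches the cell surface, where it binds the cytokine MIF. Cd74 measured 341, 195 and 359 CPM in AML 1, 2 and 3, against 105, 51.9 and 65.1 CPM in healthy 1, 2 and 3. AML 2 was the lowest of the AML libraries and healthy 1 the highest of the healthy ones, and the groups did not overlap. The log2 fold change, AML minus healthy, was 2.01 ± 0.31 (SE of the edgeR fit), which is 4.03-fold, and 129 of 12469 genes had a log2 fold change at least as large.

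H2-Aa (chromosome 17, 34282751 to 34287771) and H2-Ab1 (34263227 to 34269418) encode the alpha and beta chains of I-A, the class II molecule that C57BL/6 mice display. H2-Aa measured 55.5, 44.2 and 75.1 CPM in AML 1, 2 and 3, against 21.6, 9.21 and 15.5 CPM in healthy 1, 2 and 3. H2-Ab1 measured 95.0, 66.3 and 124 CPM in AML 1, 2 and 3, against 37.1, 16.5 and 22.6 CPM in healthy 1, 2 and 3. For both chains AML 3 was highest and healthy 2 lowest, with no overlap between groups. Their log2 fold changes were 1.91 ± 0.32 and 1.90 ± 0.33 (SE).

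H2-Eb1 encodes the beta chain of I-E, which strains with the b haplotype such as C57BL/6 do not display because their E alpha gene is defective. It measured 50.7, 38.0 and 73.9 CPM in AML 1, 2 and 3, against 19.2, 8.83 and 15.4 CPM in healthy 1, 2 and 3, a log2 fold change of 1.90 ± 0.33 (SE). H2-Eb1 therefore followed the same order of libraries as H2-Aa. The E alpha pseudogene H2-Ea-ps had 0, 0 and 1 reads in AML 1, 2 and 3, against 1, 0 and 0 reads in healthy 1, 2 and 3. In the count table the span of H2-Eb1 (34264832 to 34316674) starts inside H2-Ab1, whereas GENCODE starts it at 34305867, and how reads in the shared stretch were assigned is not given in the sources used here. Transcripts of H2-Ab1 and H2-Eb1 shared 0 stretches of 51 bases, the read length.

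The H2-DM subunits had smaller log2 fold changes than the classical chains. H2-DMa (34122832 to 34139101), the alpha subunit, measured 44.8, 34.0 and 35.6 CPM in AML 1, 2 and 3, against 23.3, 20.9 and 25.3 CPM in healthy 1, 2 and 3. It had a narrow spread in both groups, AML 1 was highest, and the groups did not overlap. Its log2 fold change was 0.72 ± 0.14 (SE), or 1.65-fold. H2-DMb1, a beta subunit, measured 5.52, 3.85 and 4.92 CPM in AML 1, 2 and 3, against 2.96, 0.664 and 1.97 CPM in healthy 1, 2 and 3, a log2 fold change of 1.35 ± 0.50 (SE). Healthy 2 stood lowest, and no healthy library reached the lowest AML library. H2-DMb2, the other beta subunit, had 5, 21 and 0 reads in AML 1, 2 and 3, against 13, 1 and 0 reads in healthy 1, 2 and 3. It did not pass the filter on low counts and the groups overlapped. The 2 beta genes are given the same span in the count table (34145416 to 34160229), and 22.3% of the 51-base stretches of H2-DMb1 transcripts also occur in H2-DMb2, so the split of reads between them is uncertain. Of the 51-base stretches of H2-DMa transcripts, 8.39% occur in its neighbour Brd2.

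Ciita, whose protein switches on the class II genes (chromosome 16, 10480072 to 10527640), had the lowest RPKM of the 7 members that passed the filter on low counts. It measured 3.68, 6.09 and 8.05 CPM in AML 1, 2 and 3, against 4.56, 2.19 and 2.72 CPM in healthy 1, 2 and 3. AML 1 lay below healthy 1, so the groups overlapped, and the order of the AML libraries differed from that of Cd74, which was high in AML 1. The log2 fold change was 0.91 ± 0.39 (SE). Of the 51-base stretches of its transcripts 1.42% occur in Dexi, a neighbouring gene.

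By the quasi-likelihood test of edgeR, 0 of the 7 members tested and 0% of the 12469 genes tested passed the threshold of 0.05 after adjustment over all genes. Without adjustment 7 members were below 0.05, as were 8.84% of all genes. DESeq2 called 5 members (1.15% of all genes) and the edgeR likelihood ratio test 5 (0.802%). The quasi-likelihood test called 1 member without AML 1, 3 without healthy 1 and 5 without both. In these fits 147 of 12764, 89 of 12766 and 444 of 12555 genes tested were called. AML libraries lay above all healthy libraries for 6 of the 8 members, a pattern held by 8.2% of all genes tested, and below all of them for 0 members, against 7.34% of all genes. As the members were chosen on this contrast, these tests cannot judge them, and nothing is read from these calls and counts. The 7 members that passed the filter had a median log2 fold change of 1.90, against 0.01 for all genes tested. The authors' deposited table lists 9769 genes, 6 members among them, with log2 fold changes of 2.02 for Cd74, 1.92 for H2-Aa, 1.91 for H2-Ab1, 1.91 for H2-Eb1, 0.73 for H2-DMa and 1.36 for H2-DMb1. Ciita and H2-DMb2 are not listed there.

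Within a library, the classical chains kept nearly fixed proportions to Cd74. Levels were compared between genes in RPKM. H2-Ab1 stood at 0.328 to 0.409 of the Cd74 level in AML libraries and at 0.375 to 0.417 in healthy libraries. H2-Aa stood at 0.170 to 0.236 of Cd74 in AML libraries and at 0.185 to 0.248 in healthy libraries, and H2-Eb1 at 0.116 to 0.161 in AML libraries and 0.132 to 0.184 in healthy libraries. The ratio of H2-Aa to H2-Ab1, the chains of 1 molecule, ran from 0.517 to 0.589 in AML libraries and from 0.492 to 0.607 in healthy libraries. For each of these ratios the groups overlapped, and the highest library was at most 1.59-fold above the lowest.

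H2-DMa and Ciita did not keep step with Cd74. The level of H2-DMa relative to Cd74 was 0.112, 0.149 and 0.0844 in AML 1, 2 and 3, against 0.189, 0.342 and 0.331 in healthy 1, 2 and 3. The level of Ciita relative to Cd74 was 0.00189, 0.00549 and 0.00394 in AML 1, 2 and 3, against 0.00762, 0.00741 and 0.00733 in healthy 1, 2 and 3. For both genes the groups did not overlap, and healthy 2 and healthy 3 lay close together. H2-DMb1 relative to Cd74 overlapped between groups, at 0.0145 to 0.0209 in AML libraries and 0.0135 to 0.0320 in healthy libraries. Although H2-DMa and H2-DMb1 encode partners in 1 heterodimer, H2-DMa exceeded H2-DMb1 by 5.83-fold to 7.12-fold in AML libraries and by 6.35-fold to 25.4-fold in healthy libraries. The uncertain split of reads between H2-DMb1 and H2-DMb2 enters this ratio, and its highest value, in healthy 2, rests on 33 reads of H2-DMb1.

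**Figure D2:**
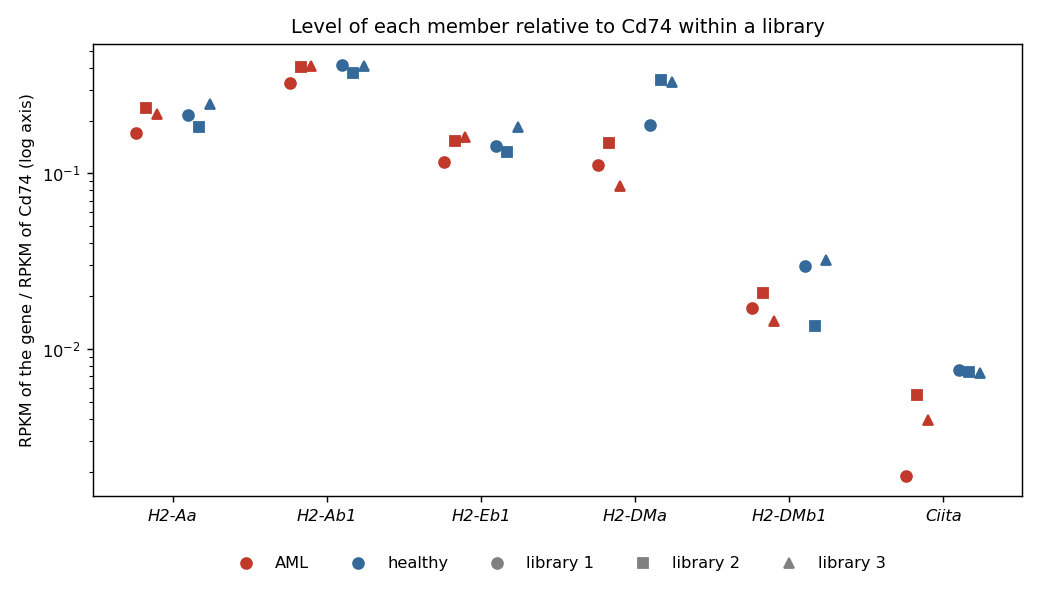
RPKM of 6 members divided by the RPKM of Cd74 in the same library (y axis, log scale), with AML in red and healthy in blue and the symbols marking the library number. H2-Aa, H2-Ab1 and H2-Eb1 overlap between groups, whereas H2-DMa and Ciita lie lower relative to Cd74 in all 3 AML libraries.

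The order of the members by mean RPKM was nearly the same in both groups. In AML libraries it ran from Cd74 at 212 ± 64.1 RPKM (SD, n = 3) through H2-Ab1 at 79.8 ± 24.3, H2-Aa at 43.1 ± 11.6, H2-Eb1 at 30.0 ± 10.1, H2-DMa at 23.1 ± 3.55 and H2-DMb1 at 3.58 ± 0.635 to Ciita at 0.741 ± 0.273 RPKM. In healthy libraries Cd74 stood at 52.6 ± 19.6 RPKM, H2-Ab1 at 21.3 ± 8.87, H2-DMa at 14.0 ± 1.34, H2-Aa at 11.4 ± 4.59, H2-Eb1 at 8.02 ± 2.91, H2-DMb1 at 1.40 ± 0.864 and Ciita at 0.394 ± 0.155 RPKM. H2-DMb2 was the lowest in both groups. Neighbours whose means differed by less than the larger of their SDs were H2-Eb1 and H2-DMa in AML libraries, and H2-Ab1 and H2-DMa, H2-DMa and H2-Aa, and H2-Aa and H2-Eb1 in healthy libraries. Cd74 made up 50.8% to 57.3% of the summed RPKM of the 8 members in AML libraries and 45.2% to 49.9% in healthy libraries, while H2-DMa made up 4.47% to 7.56% in AML libraries and 9.44% to 16.7% in healthy libraries.

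Of 47 other genes listed for the class II pathway 44 were measured and 42 tested, and 0 passed the threshold by the quasi-likelihood test of edgeR over all genes, where 0% passed. At an unadjusted p below 0.05 there were 7 higher and 1 lower in AML, against 5.08% and 3.75% of all genes tested. AML libraries lay above all healthy libraries for 8 of the 42 genes, against 8.2% of all genes tested. DESeq2 called 2 of the 42 (1.15% of all genes were called) and the edgeR likelihood ratio test called Lgmn (0.802%). The log2 fold change was positive for 26 of the 42, against 52% of all genes, and the median was 0.06.

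**Figure D3:**
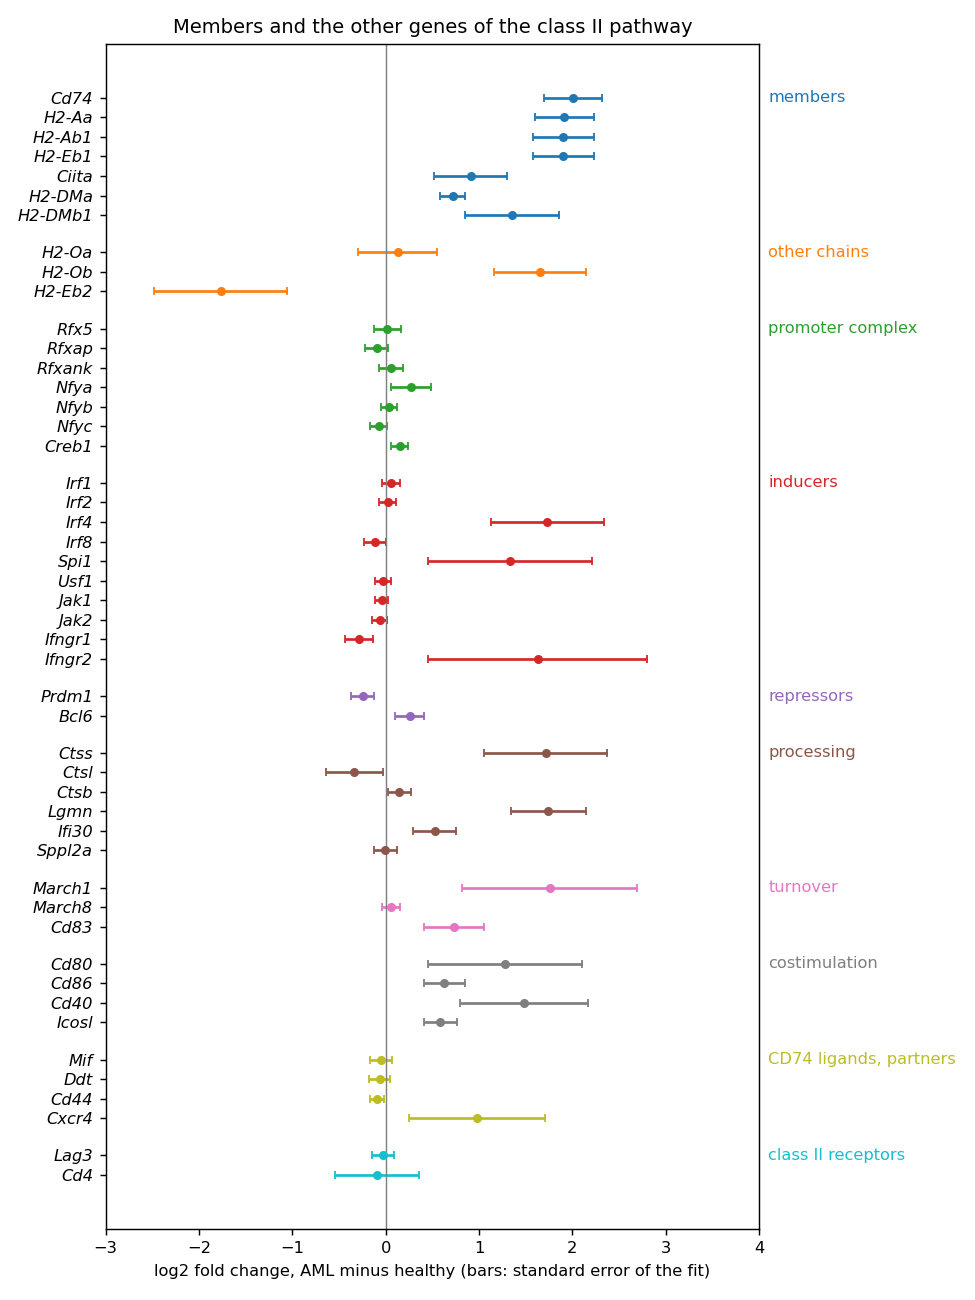
Log2 fold change, AML minus healthy (x axis), of the 7 members and 41 of the 42 other pathway genes that were tested, with bars for the standard error of the edgeR fit and colours for the lists. The members lie between 0.72 and 2.01, the genes of the promoter complex lie near 0, and H2-Eb2 lies at -1.77.

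Among the remaining class II chains the direction was mixed. H2-Ob, the beta chain of H2-DO, which restrains H2-DM chiefly in B cells, measured 2.78, 0.938 and 2.08 CPM in AML 1, 2 and 3, against 0.689, 0.503 and 0.644 CPM in healthy 1, 2 and 3. Its fitted log2 difference was 1.65 ± 0.49 (SE), and the edgeR adjusted p was 0.457. H2-Oa, the alpha chain of the same dimer, measured 1.36 to 2.00 CPM in AML libraries and 0.831 to 1.88 CPM in healthy libraries, so the groups overlapped. Its log2 fold change of 0.13 ± 0.42 (SE) turned to -0.07 without AML 3 and to -0.16 without healthy 3. H2-Eb2, a further beta chain gene, had 5, 22 and 12 reads in AML 1, 2 and 3, against 34, 24 and 73 reads in healthy 1, 2 and 3. Its CPM was lower in each AML library than in any healthy library, and the log2 fold change was -1.77 ± 0.71 (SE, edgeR adjusted p of 0.551). Without healthy 3 it was -1.17.

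Transcripts of the proteins that bind class II promoters overlapped between groups for all 7 genes listed. Most genes overlapped, as AML libraries lay above all healthy libraries for 8.2% of all genes tested and below for 7.34%. Rfx5 measured 35.6 to 46.4 CPM in AML libraries and 33.1 to 45.5 CPM in healthy libraries, and Rfxap and Rfxank, the other subunits of the RFX complex, had log2 fold changes of -0.10 ± 0.12 and 0.06 ± 0.13 (SE). Creb1, of the X box, had a log2 fold change of 0.15 ± 0.09. The smallest edgeR adjusted p of the list was 0.640.

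Of 11 genes that act upstream of Ciita, 0 passed by the edgeR quasi-likelihood test, and 2 were higher at an unadjusted p below 0.05. Over all genes tested 0% passed and 5.08% were higher at that level. Irf1, an interferon-induced factor that acts on the Ciita promoter, measured 550 to 593 CPM in AML libraries and 492 to 616 CPM in healthy libraries, with overlap. Ifngr1, a chain of the interferon gamma receptor, had a log2 fold change of -0.28 ± 0.15 and an adjusted p of 0.596 by edgeR. Without AML 1 these were -0.49 and 0.0384, and the adjusted p ran from 0.0192 to 0.847 over all alternatives. Irf4 was low throughout, at 0.823 to 1.93 CPM in AML libraries and 0.243 to 0.643 CPM in healthy libraries. It was among the genes higher at an unadjusted p below 0.05, on 12 to 90 reads a library, and the groups did not overlap. Its log2 fold change was 1.73 ± 0.60 (SE, edgeR adjusted p of 0.497). Spi1, which encodes the myeloid and B cell factor PU.1, measured 41.5, 22.9 and 22.1 CPM in AML 1, 2 and 3, against 29.0, 2.86 and 2.51 CPM in healthy 1, 2 and 3. Healthy 1 lay among the AML libraries, and without it the log2 fold change of Spi1 was 3.42 in place of 1.33, with an edgeR adjusted p of 0.0137 (0.000172 to 0.891 over all alternatives).

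Genes that process the invariant chain and antigen differed between members of the list. Lgmn, an endopeptidase that starts the cutting of the invariant chain, measured 13.3, 8.04 and 9.76 CPM in AML 1, 2 and 3, against 4.80, 2.84 and 1.64 CPM in healthy 1, 2 and 3. The groups did not overlap, and the log2 fold change was 1.74 ± 0.40 (SE, edgeR adjusted p of 0.399). Ctss, the protease cathepsin S, which makes the final cuts, measured 114, 66.0 and 85.6 CPM in AML 1, 2 and 3, against 59.5, 12.3 and 9.04 CPM in healthy 1, 2 and 3. Healthy 1 stood just below AML 2, and the log2 fold change of 1.71 ± 0.66 (SE, edgeR adjusted p of 0.536) became 3.05 without healthy 1, at an adjusted p of 0.00986 (0.000185 to 0.824 over all alternatives). Ifi30, a thiol reductase of the endosome, had a log2 fold change of 0.52 ± 0.23. Ctsb and Sppl2a, abundant proteases of the list, overlapped between groups, at 504 to 638 and 122 to 172 CPM in AML libraries and 439 to 560 and 140 to 154 CPM in healthy libraries.

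Costimulatory genes, which antigen-presenting cells use beside class II, all had positive log2 fold changes and 0 of 4 passed by the quasi-likelihood test, with 2 higher at an unadjusted p below 0.05. Over all genes tested 52% had a positive log2 fold change and 5.08% were higher at that level. Icosl, the ligand of ICOS, measured 59.2, 62.0 and 74.2 CPM in AML 1, 2 and 3, against 35.4, 39.7 and 55.0 CPM in healthy 1, 2 and 3, a log2 fold change of 0.59 ± 0.17 (SE, edgeR adjusted p of 0.457). Cd86 measured 8.67 to 13.3 CPM in AML libraries and 5.90 to 7.75 CPM in healthy libraries, and its log2 fold change was 0.63 ± 0.22. Cd80 and Cd40 stood below 3 CPM in every library. March1, a ubiquitin ligase that removes class II from the surface, measured 2.67 to 4.19 CPM in AML libraries and 0.0415 to 2.09 CPM in healthy libraries, and Cd83, which opposes it, measured 17.3 to 39.1 CPM in AML libraries and 12.5 to 20.1 CPM in healthy libraries. Without healthy 1 the log2 fold change of March1 was 2.93 in place of 1.76, that of Cd40 2.54 in place of 1.49 and that of Cd80 2.39 in place of 1.28. Without healthy 3 those of March1 and Cd40 were 1.18 and 1.13, and without healthy 2 that of Cd80 was 0.79. For each of these genes the adjusted p stayed above 0.05 in every alternative that tested it.

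Of the ligands and surface partners of CD74 5 were listed, 4 were tested and 0 passed by the edgeR quasi-likelihood test. At an unadjusted p below 0.05 there were 0 higher or lower, against 5.08% higher and 3.75% lower of all genes tested. Mif measured 16.6 to 19.6 CPM in AML libraries and 18.5 to 20.3 CPM in healthy libraries, a log2 fold change of -0.05 ± 0.12 (SE), which became 0.008 on total counts without TMM and 0.02 without AML 3. Cd44, the signalling partner of CD74, had a log2 fold change of -0.09 ± 0.08. Cxcr4, a chemokine receptor that can pair with CD74, measured 10.7, 1.90 and 2.42 CPM in AML 1, 2 and 3, against 4.38, 1.37 and 1.85 CPM in healthy 1, 2 and 3, with overlap and a log2 fold change of 0.98 ± 0.73 (SE). Cxcr2, another such receptor, had 28, 0 and 15 reads in AML 1, 2 and 3, against 5, 0 and 0 reads in healthy 1, 2 and 3. Lag3, an inhibitory receptor that binds class II, measured 19.1 to 21.3 CPM in AML libraries and 19.1 to 23.0 CPM in healthy libraries.

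Cells that constitutively carry class II were looked for by their markers in the same libraries. B cell genes were near 0 in both groups: the 8 markers summed to 5.49 to 6.74 CPM in AML libraries and to 5.90 to 8.16 CPM in healthy libraries, nearly all of it from Cd79b. Pax5 had 0 reads in all libraries. Of the 8 B cell genes 3 were tested and 0 had a positive log2 fold change, against 52% of all genes. By the edgeR quasi-likelihood test 0 passed, with 0 at an unadjusted p below 0.05, against 8.84% of all genes. DESeq2 and the likelihood ratio test called 0, against 1.15% and 0.802% of all genes.

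The macrophage marker C1qb was higher in each AML library than in any healthy library. C1qb, which codes for part of complement C1q, measured 11.6, 18.8 and 38.8 CPM in AML 1, 2 and 3, against 2.41, 3.82 and 4.22 CPM in healthy 1, 2 and 3. Of the 10 markers of Kupffer cells and macrophages 8 were tested, all with a positive log2 fold change. By the edgeR quasi-likelihood test 0 passed, and 5 were higher at an unadjusted p below 0.05, where 5.08% of all genes were higher and 52% had a positive log2 fold change. DESeq2 called 5 of the 8 tested, Adgre1, C1qa, C1qb, C1qc and Ms4a7, and the likelihood ratio test called 4 of them, without C1qa. Over all genes tested these 2 tests called 1.15% and 0.802%. Clec4f, a Kupffer cell receptor, overlapped between groups, at 0.513 to 3.53 CPM in AML libraries and 0.324 to 4.102 CPM in healthy libraries. Timd4, Cd5l, Vsig4 and Marco also overlapped. The sum of the 10 ran from 44.1 to 124 CPM in AML libraries and from 13.3 to 19.2 CPM in healthy libraries. Within groups C1qb and class II followed different orders, since healthy 1 had the most class II and the least C1qb of the healthy libraries. Summed class II per unit of C1qb was 51.4, 20.6 and 17.6 in AML 1, 2 and 3, against 88.7, 28.8 and 35.3 in healthy 1, 2 and 3, with overlap.

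Some monocyte genes set healthy 1 apart from healthy 2 and 3. Lyz2, the lysozyme of myeloid cells, measured 503, 567 and 434 CPM in AML 1, 2 and 3, against 459, 35.0 and 33.1 CPM in healthy 1, 2 and 3. Csf1r, the receptor for the macrophage growth factor CSF1, measured 115, 59.1 and 68.8 CPM in AML 1, 2 and 3, against 71.2, 9.81 and 7.15 CPM in healthy 1, 2 and 3. Ccr2, a chemokine receptor of monocytes, did not, and measured 294, 274 and 294 CPM in AML 1, 2 and 3, against 195, 212 and 189 CPM in healthy 1, 2 and 3. Ly6c2 likewise measured 26.6 to 54.9 CPM in AML libraries and 23.6 to 25.6 CPM in healthy libraries. Summed class II per unit of Lyz2 was 1.19, 0.684 and 1.57 in AML 1, 2 and 3, against 0.467, 3.15 and 4.49 in healthy 1, 2 and 3. Healthy 1 carried as much Lyz2 as the AML libraries but 214 CPM of class II against at least 387 CPM in each AML library. Healthy 2 and healthy 3 carried the least Lyz2 and the least class II. The 8 monocyte markers summed to 879 to 1025 CPM in AML libraries and to 266 to 809 CPM in healthy libraries, and all 8 had a positive log2 fold change, against 52% of all genes. By the quasi-likelihood test 0 passed and 4 were higher at an unadjusted p below 0.05, against 5.08% of all genes. DESeq2 called Ccr2 and Ms4a6c (1.15% of all genes were called), and the likelihood ratio test called Ccr2 (0.802%). Without healthy 1 the edgeR quasi-likelihood test called Lyz2 and Csf1r, with log2 fold changes of 3.88 and 3.25 in place of 1.51 and 1.46, at adjusted p of 0.000401 and 0.0137. Over all alternatives the adjusted p of Lyz2 ran from 1.75e-05 to 0.883 and that of Csf1r from 0.000167 to 0.876.

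Dendritic cell genes differed widely in level and in the size of their difference between groups. Siglech, of plasmacytoid dendritic cells, had 152, 42 and 124 reads in AML 1, 2 and 3, against 0 reads in each healthy library. Like Cd74, it was lowest among the AML libraries in AML 2. Batf3, a factor of conventional dendritic cells, had 70, 63 and 56 reads in AML 1, 2 and 3, against 9, 0 and 7 reads in healthy 1, 2 and 3. Flt3 measured 0.492, 1.42 and 2.21 CPM in AML 1, 2 and 3, against 1.52, 0.0603 and 0.0831 CPM in healthy 1, 2 and 3. Xcr1 and Itgax were level between groups, at 12.5 to 16.4 and 672 to 765 CPM in AML libraries and 12.6 to 13.4 and 694 to 769 CPM in healthy libraries. Zbtb46 measured 4.84 to 8.21 CPM in AML libraries and 4.11 to 5.85 CPM in healthy libraries, with overlap. Clec9a, Cd209a and Clec10a also overlapped. Of the 8 conventional markers only Batf3 lay higher in each AML library than in any healthy library, against 8.2% of all genes tested. The 8 conventional dendritic cell markers summed to 698 to 793 CPM in AML libraries and to 716 to 788 CPM in healthy libraries. Nearly all of this came from Itgax, so the sum says little of the other markers. The 7 plasmacytoid markers summed to 110.3 to 122.6 CPM in AML libraries and 84.4 to 88.0 CPM in healthy libraries, mostly from Bst2. Of these lists 12 of the 13 tested genes had a positive log2 fold change and 0 passed in the edgeR quasi-likelihood test, with 5 higher at an unadjusted p below 0.05, against 52% and 5.08% of all genes. DESeq2 and the likelihood ratio test each called Batf3, Ccr9 and Siglech, against 1.15% and 0.802% of all genes. Ccr9, a chemokine receptor of plasmacytoid cells, had 74, 54 and 70 reads in AML 1, 2 and 3, against 10, 1 and 1 reads in healthy 1, 2 and 3. What part monocyte, macrophage and dendritic cell RNA had in the class II level was not tested.

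**Figure D4:**
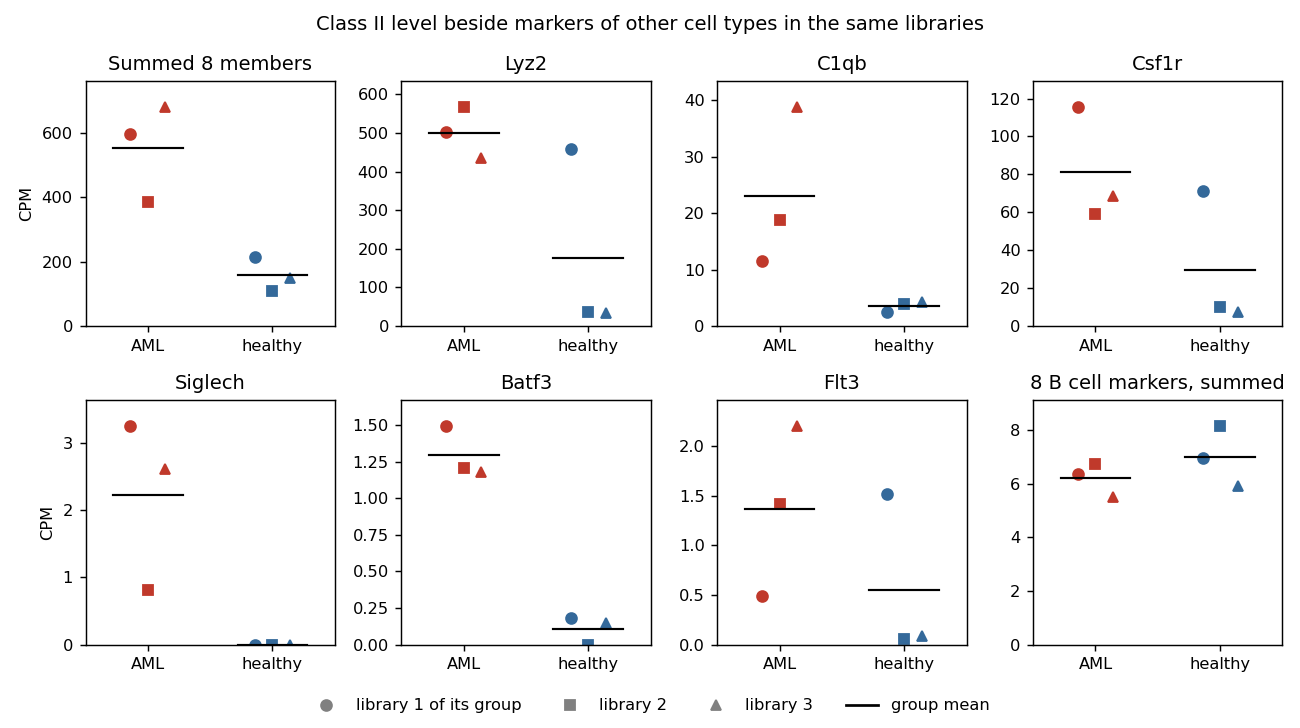
Summed CPM of the 8 members beside the CPM of Lyz2, C1qb, Csf1r, Siglech, Batf3 and Flt3 and the summed CPM of 8 B cell markers (y axes, each from 0) in the 3 AML and 3 healthy libraries. Healthy 1 lies with the AML libraries for Lyz2, Csf1r and Flt3 and with the healthy libraries for class II, C1qb and Siglech, and the B cell sum overlaps between groups.

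Markers of other cells of the liver were also read. T cell markers summed to 982 to 1354 CPM in AML libraries and to 1376 to 1696 CPM in healthy libraries, of which Cd3g made up most. Neutrophil markers summed to 145, 9.61 and 13.9 CPM in AML 1, 2 and 3, against 13.0, 0.664 and 5.90 CPM in healthy 1, 2 and 3, and Ly6g had 0 reads in all libraries. The sums of hepatocyte markers were 186 to 205 CPM in AML libraries and 230 to 276 CPM in healthy libraries, nearly all from Trf, as Alb stood at 0.0841 to 0.727 CPM in AML libraries and 0.507 to 3.14 CPM in healthy libraries. Endothelial markers summed to 96.4 to 116 CPM in AML libraries and to 91.1 to 126 CPM in healthy libraries, nearly all from Pecam1, and Lyve1 had 0 reads in all libraries. The ILC3 list summed to 20.1 to 33.0 CPM in AML libraries and 6.82 to 27.3 CPM in healthy libraries, with Il17a and Il22 at 0 reads, and the conventional NK cell list to 110.1 to 144 CPM in AML libraries and 122 to 145 CPM in healthy libraries.

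The genes whose level followed the mean log2 CPM of the 8 members most closely over the 6 libraries were Bst1, Lacc1, Ccdc96, Siglece, Ifi204, Naaa, Marcks, Mrpl18, Hepacam2 and Cfp, with Pearson correlations of 0.99 to 0.98. Ifi204, an interferon-inducible PYHIN protein, measured 16.0, 14.0 and 14.3 CPM in AML 1, 2 and 3, against 7.05, 3.78 and 4.96 CPM in healthy 1, 2 and 3. Cfp, which encodes the complement regulator properdin, measured 4.75, 4.90 and 5.19 CPM in AML 1, 2 and 3, against 2.17, 1.21 and 1.37 CPM in healthy 1, 2 and 3. Both genes were chosen for following the members. Healthy 1 was the highest of the healthy libraries for each, and the groups did not overlap. With so few libraries in separate groups the choice of names is fragile: when H2-DMb2 was left out of the mean, 0 of the 10 genes remained in the list. Among the members, the correlation of each with the mean of the other 7 was 0.94 for Cd74, 0.96 for H2-Aa, 0.96 for H2-Ab1, 0.94 for H2-Eb1, 0.93 for H2-DMb1, 0.86 for H2-DMa, 0.82 for Ciita and 0.22 for H2-DMb2, which share depth and the split between groups.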

How the data were processed

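Total RNA (2 ng) was amplified with a poly(A)-primed SMART-Seq kit without strand information and sequenced as single reads of 51 cycles, per the labels' protocols. STAR 2.6.0, HTSeq 0.6.0, bcl2fastq 2.18.0.12 and edgeR 3.28.1, with builds mm10 and hg19, are named in the submitters' processing notes. How multimapping or overlapping reads were counted is not given in the sources used here. Raw read counts per gene were used as deposited by the authors. The second table holds the authors' deposited log2 fold changes and log2 average CPM, a likelihood ratio score, p-values, and values per library that match RPKM of the deposited counts and were not used. The RPKM given here were computed from the counts and the deposited gene lengths.

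AML was compared with healthy by edgeR 4.0.16 (R 4.3.3) with TMM, filterByExpr at a minimum count of 10, the quasi-likelihood F test, group only, two-sided, and Benjamini-Hochberg adjustment over 12469 genes. The procedure was tested on simulated data. The threshold was an adjusted p of 0.05. An exact permutation test of 3 against 3 cannot go below p = 0.1. No libraries agreed within sampling noise. The limit set by 3 reads covers counting error only. DESeq2 1.42.0 and limma 3.58.1 served as alternatives, beside other scalings and filters, a replicate block and left-out libraries.

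The members and gene lists were chosen with earlier results of these data known. The rule for naming covered the members, the pathway genes, Lyz2, C1qb, the 3 most abundant markers of a list and the 10 genes most like the members. It was not followed in full, and values of Tcf4, Cox6a2, Cd79a and Fcmr, for example, are not given though they fall under it. Other markers (such as Pax5, Siglech, Ccr9, Batf3, Flt3, Clec4f, Ly6c2, Alb and those called by other tools) were named after their values were seen. Values of some listed genes are not reported here.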

Additional observations from a re-analysis of the deposited data

How the results depend on the processing

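Over 15 alternatives the median log2 fold change of the members ranged from 1.61 to 2.21, a span that came from leaving out libraries, and moved by less than the spread between replicates in each. The count of genes past the threshold, 0 with all libraries, was 2 on total counts without TMM, 2 with no filter on low counts, 1 with a minimum count of 100, 143 by the DESeq2 Wald test and 100 by the edgeR likelihood ratio test, and 0 to 444 with libraries left out. Of these, 147 were called without AML 1, 89 without healthy 1 and 444 without both. Other pathway genes past the threshold numbered 2 by DESeq2, 1 by the likelihood ratio test and 0 to 4 with libraries left out. With the replicate number as a block the count was 0 for all genes and 0 for pathway genes, and the median of the members kept its direction. Same-numbered libraries deviated together with correlations of 0.13, -0.05 and 0.16, not over 0.1 for each, and the labels do not say what the numbers share, so the libraries were treated as unpaired. Of 606 single-gene values recomputed, 10 changed sign, all of genes near 0. Mif was 0.008 and Itgax 0.0047 on total counts without TMM. With libraries left out the log2 fold change ran from -0.0952 to 0.0208 for Mif, -0.16 to 0.43 for H2-Oa, -0.11 to 0.20 for Rfx5, -0.0476 to 0.21 for Rfxank and -0.0486 to 0.14 for Irf1. Ciita moved by more than its spread in 1 alternative, to 1.52 without healthy 1 and AML 1. The causes were not tested. Depth limits H2-DMb2, H2-Ea-ps, Siglech and Batf3, which rest on few reads.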
